A study of Mus musculus with 8 samples.

Results

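Levels of 5 mature miRNAs made at imprinted loci outside the large Dlk1-Dio3 cluster were measured in hippocampi of the mouse strains BTBR and B6. They are mmu-miR-335-5p and mmu-miR-335-3p, from a hairpin inside Mest, and mmu-miR-296-5p, mmu-miR-296-3p and mmu-miR-298-5p, from hairpins of the Gnas-Nespas locus (the species prefix mmu is left out from here on). They were taken by name from the deposited table, which held all 5 among its 422 miRNAs. Small RNA was sequenced from single hippocampi of 4 BTBR T+ Itpr3tf/J mice (BTBR), inbred animals that serve as an idiopathic autism model, and of 4 C57BL/6J mice (B6), the inbred control strain. All were adult males of 12 weeks, and each library is 1 mouse. An inbred mouse carries the same sequence on its maternal and paternal chromosomes, so these counts cannot tell from which parental copy a miRNA was made.

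An imprinted gene is expressed mainly from the copy inherited from one parent. Mest, which encodes a hydrolase-like protein of the endoplasmic reticulum, is expressed from the paternal copy, and miR-335 lies in its intron. The Gnas locus combines maternally, paternally and biallelically expressed transcripts, and Nespas is its paternally expressed antisense transcript, to which the miR-296 and miR-298 hairpins are linked. A hairpin can give a mature miRNA from its 5′ arm (5p) and from its 3′ arm (3p), and target choice depends mainly on the seed, bases 2 to 8 of the mature strand.

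The mature sequences are shown because they set apart the products of the loci in seed and base composition. They are RefSeq's, in the build GRCm38.p6 of the C57BL/6J genome, written 5′ to 3′ with the seed in capitals.
miR-335-5p: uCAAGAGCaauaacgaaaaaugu
miR-335-3p: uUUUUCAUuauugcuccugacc
miR-296-5p: aGGGCCCCcccucaauccugu
miR-296-3p: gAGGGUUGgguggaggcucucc
miR-298-5p: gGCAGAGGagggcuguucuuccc
The 5 seeds differ from each other, and none of the other miRNAs in the table with a RefSeq sequence (367 of the 422 had one) shares any of them. G and C make up 30.4% of miR-335-5p and 36.4% of miR-335-3p, against 66.7% of miR-296-5p, 68.2% of miR-296-3p and 65.2% of miR-298-5p. All are between 21 and 23 bases long, so read counts were compared between them without a correction for length.

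The miR-335 hairpin lies on the plus strand of chromosome 6, at chr6:30741299-30741396, on the strand of Mest (chr6:30723547-30748465). It is intronic in 7 of the 11 Mest transcripts of GENCODE M21, in intron 2 of 4 protein-coding ones and intron 3 of 2. The miR-298 and miR-296 hairpins are on the minus strand of chromosome 2, at chr2:174267504-174267585 and chr2:174267047-174267125, with 378 bases between them. They overlap no other annotated gene there. The annotated 3′ end of Nespas (chr2:174281237-174295436, minus strand) is 13651 bases upstream of the miR-298 hairpin.

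Libraries held between 5078301 and 5792967 reads on miRNAs in B6 mice and between 2247482 and 7904990 in BTBR mice. Levels are given as CPM, counts scaled to a common library size of 1000000 reads after edgeR's TMM normalization. The strains were set against each other with the quasi-likelihood test of edgeR over all 422 miRNAs, with Benjamini-Hochberg adjustment and the study's threshold of 0.1. An exact permutation test (two-sided, 70 ways to split 8 mice) was run on each of the 5 as well, and its p cannot go below 0.0286. B6 replicate 2 had the highest level of red blood cell miRNAs among B6 mice, and the values of that list are given beside miR-335-3p. The neuronal marker miRNAs (5 of 5 measured) summed to 51640 to 80541 CPM in the 8 libraries.

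None of the 5 miRNAs passed the threshold between strains, while 1.66% of all 422 did (1.18% higher and 0.474% lower in BTBR mice). The miR-335 strands had higher mean levels in BTBR mice, and all 3 miRNAs of the Gnas-Nespas locus had lower ones. At an unadjusted p under 0.05, 2 of the 5 differed by edgeR's quasi-likelihood test, against 10.9% of all miRNAs, with miR-335-3p higher (7.35% of all were higher) and miR-298-5p lower (3.55% were lower). With the edgeR exact test and limma-voom, 0 of the 5 also passed the adjusted threshold, against 16 and 6 of all 422. With the DESeq2 Wald test 21 of all passed and none of the 4 members that had an adjusted p, since DESeq2 gave none for miR-298-5p. Only miR-298-5p had strains that did not overlap, which held for 6.64% of all miRNAs, 3.32% with BTBR mice higher and 3.32% with BTBR mice lower.

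miR-335-3p was the most abundant of the 5 miRNAs. Its levels were 111, 176, 49.6 and 68.1 CPM in B6 replicates 1 to 4, and 132, 151, 283 and 199 CPM in BTBR replicates 1 to 4. B6 replicate 2 lay above the 2 lowest BTBR mice, and the other B6 mice lay below every BTBR mouse. B6 mice averaged 101 ± 56.3 CPM (SD, n = 4) and BTBR mice 191 ± 67.1 CPM. This is a 1.89-fold difference with a 95% interval from 1.05 to 3.38 (log2 fold change 0.92, standard error 0.38, edgeR quasi-likelihood test, Benjamini-Hochberg adjusted p = 0.439). Mouse by mouse the difference had p = 0.0857 in the exact permutation test. With B6 replicate 2 left out the estimate was 1.36 on the log2 scale (edgeR quasi-likelihood test, Benjamini-Hochberg adjusted p = 0.103), and with B6 replicate 3 left out it was 0.66.

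Red blood cell miRNAs (miR-451a, miR-144 and miR-486 strands, 5 of 5 measured) were high and low in some of the same libraries as miR-335-3p. Their summed level was 788, 1631, 561 and 573 CPM in B6 replicates 1 to 4, and 942, 2582, 2608 and 2023 CPM in BTBR replicates 1 to 4. Most of each sum comes from miR-486a-5p and miR-486b-5p. These had the same count in every library and cannot be told apart, so their reads entered the sum more than once. On both measures B6 replicate 2 was the highest B6 library and BTBR replicate 1 the lowest BTBR library. The part of blood or muscle in the miR-335-3p difference was not tested, and in whole tissue more cells of a type and more RNA per cell cannot be told apart.

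miR-335-5p, the other strand of the hairpin, was less abundant in every library. It had 81.2, 82.0, 43.6 and 44.3 CPM in B6 replicates 1 to 4, and 73.4, 51.2, 132 and 107 CPM in BTBR replicates 1 to 4. The strains overlapped widely, with 2 BTBR mice above all B6 mice and 2 within their range. B6 mice averaged 62.8 ± 21.7 CPM (SD, n = 4) and BTBR mice 90.9 ± 35.7 CPM. The fold difference was 1.45, with a 95% interval from 0.868 to 2.43 (edgeR quasi-likelihood test, Benjamini-Hochberg adjusted p = 0.617, p = 0.2 in the exact permutation test).

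At the Gnas-Nespas locus, miR-296-5p was the most abundant product and the steadiest of the 5 miRNAs in B6 mice. Its levels were 28, 27.8, 23.0 and 30.3 CPM in B6 replicates 1 to 4, and 25.3, 13.9, 18.3 and 19.7 CPM in BTBR replicates 1 to 4. Every BTBR mouse except replicate 1 lay below all B6 mice. B6 mice averaged 27.3 ± 3.08 CPM (SD, n = 4) and BTBR mice 19.3 ± 4.69 CPM, a fold of 0.712 with a 95% interval from 0.472 to 1.07 (edgeR quasi-likelihood test, Benjamini-Hochberg adjusted p = 0.543, p = 0.0571 in the exact permutation test).

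miR-296-3p, from the other arm, had 12.5, 10, 7.27 and 10.1 CPM in B6 replicates 1 to 4. In BTBR replicates 1 to 4 it had 6.17, 8.98, 8.77 and 6.62 CPM. The strains overlapped in part, since B6 replicate 3 lay below 2 BTBR mice. The fold was 0.759 with a 95% interval from 0.459 to 1.25 (edgeR quasi-likelihood test, Benjamini-Hochberg adjusted p = 0.713, p = 0.143 in the exact permutation test).

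miR-298-5p was the rarest of the 5 miRNAs and had the largest log2 fold change among them in size. It had 4.03, 7.53, 3.23 and 6.52 CPM in B6 replicates 1 to 4, from 21, 45, 16 and 29 reads. In BTBR replicates 1 to 4 it had 1.85, 1.35, 2.50 and 2.77 CPM, from 9, 3, 10 and 23 reads. All BTBR mice lay below all B6 mice, with B6 replicate 3 and BTBR replicate 4 nearest to each other. B6 mice averaged 5.33 ± 2.03 CPM (SD, n = 4) and BTBR mice 2.12 ± 0.642 CPM. The log2 fold change was −1.28 (standard error 0.46, 95% interval −2.29 to −0.26, edgeR quasi-likelihood test, Benjamini-Hochberg adjusted p = 0.301), and the exact permutation test gave its smallest possible p of 0.0286. The few reads leave wide counting errors. The 3 reads of BTBR replicate 2 allow 0.278 to 3.94 CPM (exact Poisson 95% interval), and the 16 reads of B6 replicate 3 allow 1.85 to 5.24 CPM. These intervals cover counting error only, since reads without molecular identifiers are not independent molecules.

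**Figure D1:**
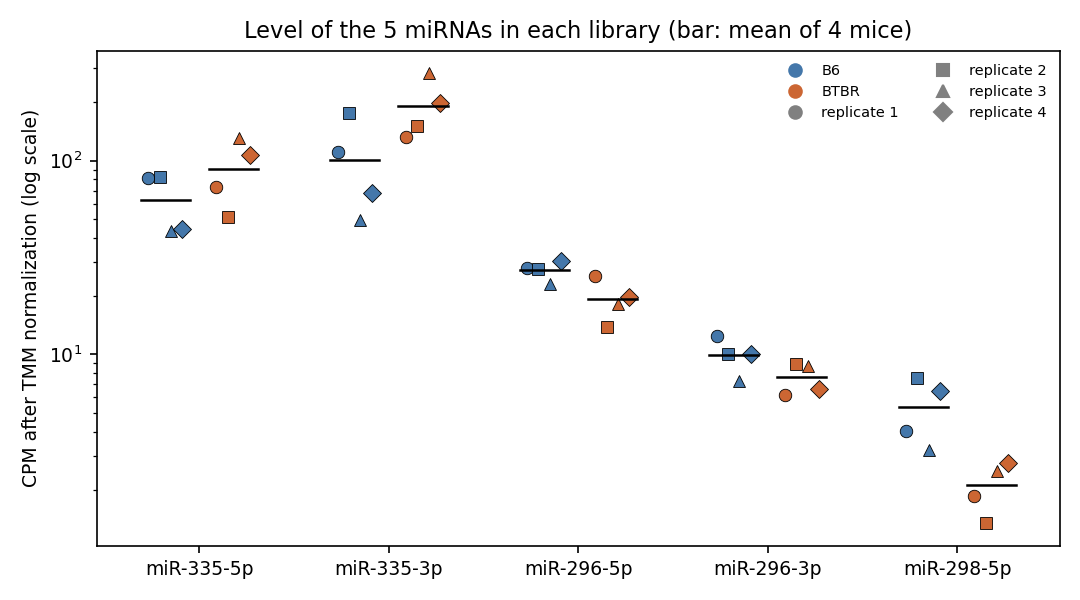
Level of each of the 5 miRNAs in CPM after TMM normalization, on a log axis, in the 4 B6 and 4 BTBR libraries, with marker shapes for replicate numbers and bars for the means. The BTBR means lie above the B6 means for both miR-335 strands and below them for miR-296-5p, miR-296-3p and miR-298-5p, and only for miR-298-5p do the strains not overlap.

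**Figure D2:**
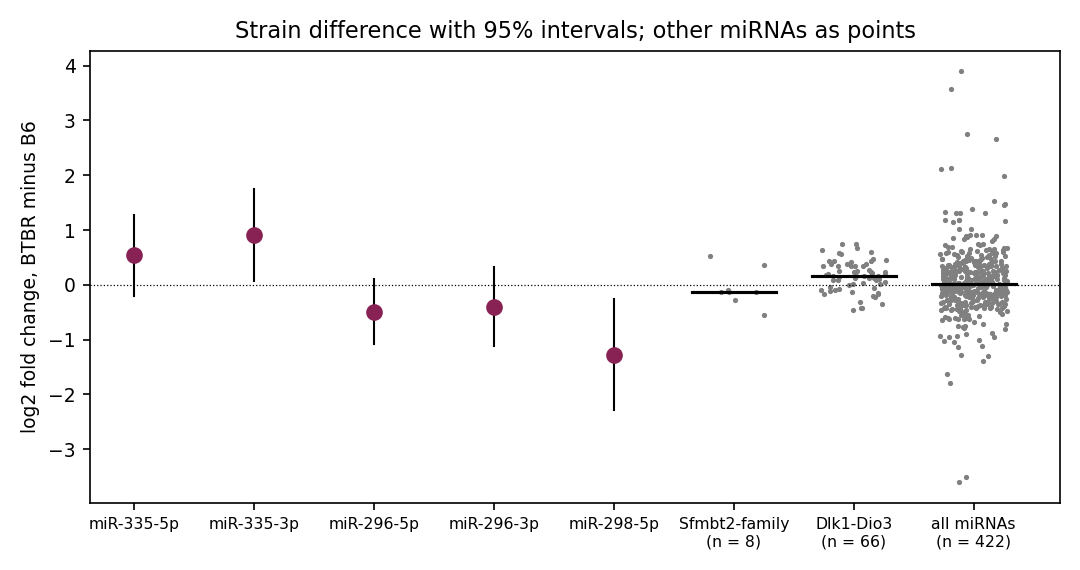
The log2 fold change (BTBR minus B6) of the 5 miRNAs with 95% intervals from edgeR's quasi-likelihood fit, beside the values of 8 miRNAs of the Sfmbt2 families, 66 of the Dlk1-Dio3 locus and all 422 as points with a bar at the median. The intervals of miR-335-3p and miR-298-5p leave out 0 on opposite sides, and those of the other 3 include it.

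The use of the hairpin arms was compared as a ratio of counts within each library, which does not depend on normalization. In miR-335 the 3p arm was the more abundant in all 8 libraries. The 5p arm had 42.2%, 31.7%, 46.8% and 39.4% of the reads of both arms in B6 replicates 1 to 4, and 35.7%, 25.3%, 31.8% and 35.0% in BTBR replicates 1 to 4. B6 replicate 2 fell among the BTBR mice, and the other B6 mice lay above them. The mean share was 40% ± 6.30 (SD, n = 4) in B6 and 31.9% ± 4.76 in BTBR mice, and the difference in the log2 ratio of the arms did not pass the test (−0.51, p = 0.114 in the exact permutation test, 0.229 adjusted over the 2 hairpins). Without B6 replicate 2 the difference in the log2 ratio was −0.68, with an adjusted p of 0.0571 in the same exact test.

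In miR-296 the balance was the opposite, and the 5p arm was the more abundant in all 8 libraries. Its share lay between 69.2% and 76.0% in B6 mice and between 60.8% and 80.4% in BTBR mice, so that the BTBR values spread on both sides of the B6 values. The lowest share rests on 51 reads of BTBR replicate 2, with a Wilson 95% interval from 47.1% to 73.0%. The strains had mean shares of 73.4% ± 3.0 (SD, n = 4) and 70.9% ± 8.55, with p = 0.657 in the exact permutation test. The difference in the log2 ratio of the arms was −0.14 with all mice and 0.087 without BTBR replicate 2.

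**Figure D3:**
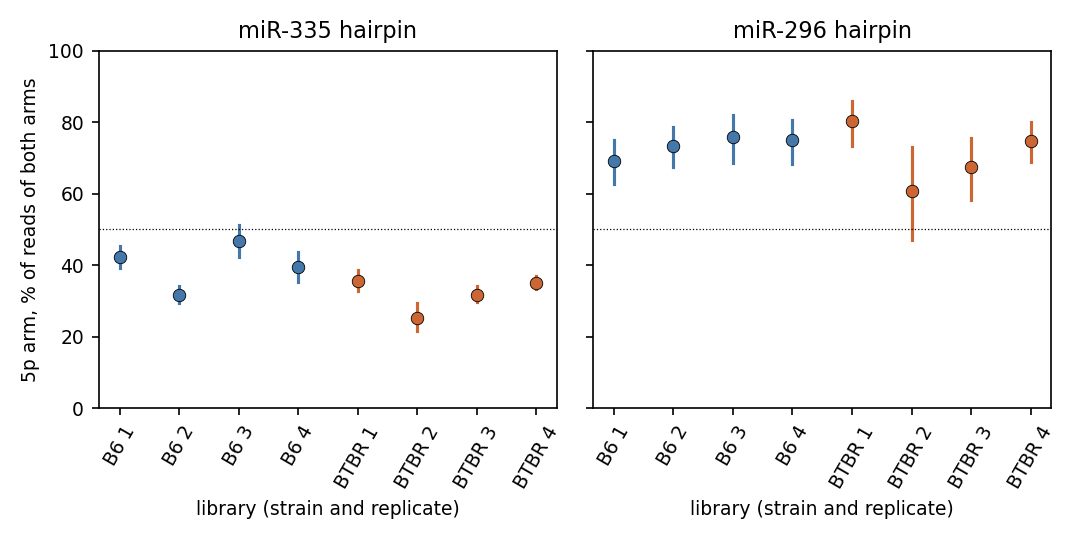
Share of the 5p arm in the reads of both arms of the miR-335 and miR-296 hairpins, in percent, in each library, with Wilson 95% intervals that cover counting error only. The shares of miR-335 lie between 25.3% and 46.8%, under the dotted line at 50%, and those of miR-296 between 60.8% and 80.4%, above it.

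The loci were also set against each other within each library, as the reads of both miR-335 strands over the reads of the 3 miRNAs of the Gnas-Nespas locus. This ratio was 4.32, 5.70, 2.78 and 2.39 in B6 replicates 1 to 4, and 6.18, 8.35, 14.0 and 10.5 in BTBR replicates 1 to 4. All BTBR mice lay above all B6 mice, and B6 replicate 2 and BTBR replicate 1 were nearest to each other, with a gap smaller than the counting error of their 271 and 162 reads on the Gnas-Nespas miRNAs. The geometric mean of the ratio was 2.61-fold higher in BTBR mice, a log2 difference of 1.38, against standard deviations of 0.58 in B6 and 0.50 in BTBR mice. The summed red blood cell miRNAs given above, mostly miR-486, were also lowest in B6 replicates 3 and 4 and highest among B6 mice in replicate 2. Among BTBR mice they were lowest in replicate 1, as the ratio was, and their part in the ratio was not tested. No p is given for this ratio, since the miRNAs in it were chosen with earlier results known. Without miR-298-5p the ratio was 2.47-fold higher and the strains overlapped.

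In CPM, the summed level of the miR-335 strands was between 93.2 and 258 in B6 and between 202 and 415 in BTBR mice. The sum of the Gnas-Nespas miRNAs was between 33.5 and 47.0 CPM in B6 and between 24.2 and 33.3 CPM in BTBR mice, which left a gap smaller than the counting error of either library at its edge. Of the 6 ratios that pair a miR-335 strand with a single miRNA of the other locus, 2 did not overlap between strains, and both have miR-298-5p as the denominator. Within loci, 1 of 4 did not, that of miR-296-5p to miR-298-5p, which lay between 3.69 and 7.13 in B6 and between 7.13 and 13.7 in BTBR mice, apart only past the printed digits and by less than counting error. Of all 88831 pairs of miRNAs in the table, 5.96% had ratios that did not overlap.

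**Figure D4:**
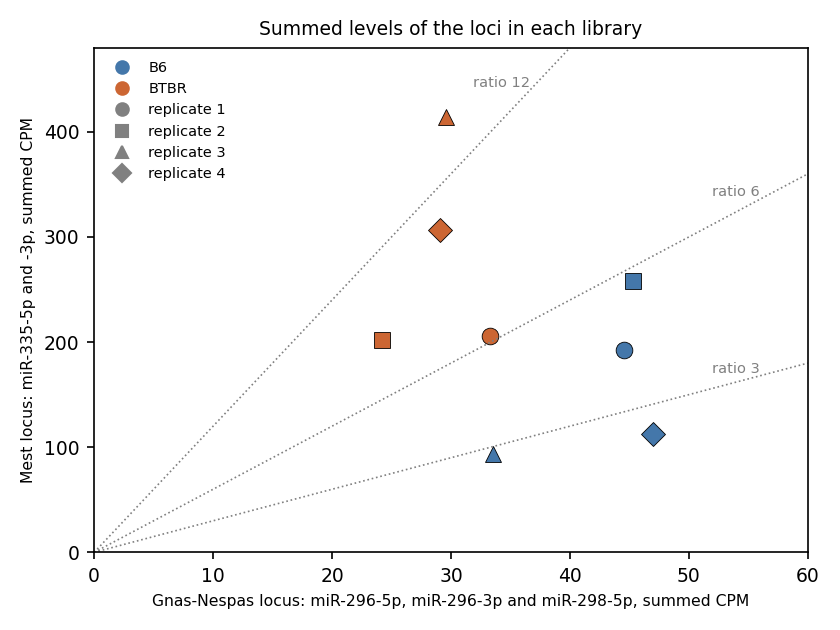
Summed CPM of the miR-335 strands (vertical) against summed CPM of miR-296-5p, miR-296-3p and miR-298-5p (horizontal) in each of the 8 libraries, with dotted lines of equal ratio. The BTBR libraries lie to the left of the B6 libraries, at ratios of 6.18 to 14.0 against 2.39 to 5.70, while on the vertical axis the strains overlap.

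Since the products of the loci differ in base composition, GC content was set against the strain difference over the 367 miRNAs with a sequence. Spearman's rho was −0.0079, given as a description across miRNAs. The 75 miRNAs with under 40% G and C had a median log2 fold change of 0.05, and the 56 with 60% or more had one of 0.16. With GC content taken out of each library, an alternative added after the data were seen, the log2 fold changes were 0.84 for miR-335-3p, 0.42 for miR-335-5p, −0.53 for miR-296-5p, −0.46 for miR-296-3p and −1.27 for miR-298-5p.

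Whether products of the same locus varied together from mouse to mouse was examined after centring each miRNA on its strain means. Among the 10 pairs, the miR-335 strands had the highest correlation (Pearson's r = 0.84, p = 0.0226; Spearman's rho = 0.81, p = 0.0347; exact permutation tests within strains, n = 8 mice), with adjusted p of 0.226 and 0.347 over the 10 pairs. Without the 2 mice farthest from the median, picked by miR-335-5p only here and by miR-296-5p only in the pairs below, r was 0.90. Without BTBR replicate 2 alone it was 0.94, with an adjusted p of 0.0694 in the exact permutation test. The miR-296 strands had r = −0.25 (p = 0.59) and rho = −0.24 (p = 0.615), both from exact permutation tests, and r was 0.55 without the 2 farthest mice. miR-296-5p and miR-298-5p, from hairpins close together, had r = 0.48 (p = 0.214) and rho = 0.48 (p = 0.267) in exact permutation tests, and r was 0.70 without the 2 farthest mice. With TMM normalization, centring and all 8 mice no pair passed after adjustment, while the miR-335 strands did with library size only (r = 0.90, adjusted p = 0.0521, exact permutation test) or without centring (r = 0.87, adjusted p = 0.0868), and low reads of miR-296-3p and miR-298-5p limit what could be seen.

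The miRNAs most alike across the 8 libraries were named by Pearson's r of log2 CPM, as a description only, over libraries that differ in strain and depth. For miR-335-3p they were miR-1251-5p (r = 0.97), miR-211-5p (0.91) and miR-34a-5p (0.91). For miR-335-5p they were miR-410-3p (0.94), let-7f-2-3p (0.94) and miR-135a-5p (0.92). miR-296-5p was most like miR-872-5p (0.98), miR-181a-1-3p (0.96) and miR-341-3p (0.93). miR-296-3p was most like miR-301a-5p (0.91), miR-204-5p (0.83) and miR-204-3p (0.81), and miR-298-5p was most like miR-301a-3p (0.92), miR-186-5p (0.92) and miR-3069-3p (0.85). The other strand of the same hairpin was in none of these lists. miR-410-3p and miR-341-3p belong to the imprinted Dlk1-Dio3 locus, and miR-204 and miR-211 are abundant in choroid plexus. Between strains these choroid plexus markers went in different directions, and none passed the threshold. The log2 fold change was 0.91 for miR-211-5p, −1.30 for miR-204-5p and −1.79 for miR-204-3p. Over the 8 libraries miR-204-5p averaged 8458 CPM and miR-211-5p 6.54 CPM. The 8 choroid plexus markers summed to 5203 to 39776 CPM in B6 and 5243 to 9543 CPM in BTBR mice. B6 replicate 1, the highest in that sum, was also the highest in miR-296-3p. BTBR mice had the same order in that sum and in miR-296-3p, and the other B6 mice did not. The part of choroid plexus in that miRNA was not tested.

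Other imprinted miRNAs were counted beside the 5. The list for loci outside Dlk1-Dio3 had 8 measured members, all from the miR-466, miR-467 and miR-669 families, most copies of which lie in an intron of Sfmbt2. Of these, 0 passed the threshold in either direction, and 0 had an unadjusted p under 0.05 by edgeR's quasi-likelihood test, against 1.66% and 10.9% of all miRNAs, shares at which a list of 8 can well hold none. Their log2 fold changes lay between −0.56 and 0.53, with a median of −0.13, against 0.02 for all 422 miRNAs. miR-669c-5p, the most abundant member, averaged 123 CPM in B6 mice and 101 CPM in BTBR mice (edgeR quasi-likelihood test, Benjamini-Hochberg adjusted p = 0.686). miR-669a-5p and miR-669p-5p had the same count in every library and cannot be told apart.

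The Dlk1-Dio3 locus, a large imprinted miRNA cluster, had 66 measured members. None passed the adjusted threshold, 48 had log2 fold changes above 0 (against 215 of all 422) and the median was 0.16. At an unadjusted p under 0.05 by edgeR's quasi-likelihood test, 4 were higher and 0 lower in BTBR mice, against 7.35% and 3.55% of all miRNAs. The smallest p belonged to miR-154-5p, averaging 61.9 CPM in B6 mice and 98.6 CPM in BTBR mice (log2 fold change 0.67, edgeR quasi-likelihood test, Benjamini-Hochberg adjusted p = 0.254). The log2 fold changes of this locus ended at 0.74, under the 0.92 of miR-335-3p, and at −0.46, short of the −1.28 of miR-298-5p.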

How the data were processed

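Hippocampal small RNA from 4 BTBR and 4 B6 mice was sequenced with the TruSeq Small RNA kit, 1 library per mouse. The authors removed adapters, checked reads with FastQC 0.11.2, mapped them to GRCm38 with sRNAbench, which runs Bowtie, assigned reads within miRBase annotations, and deposited whole-number read counts of 422 miRNAs without normalization. Multiple mapping was not resolved here, and miR-298-3p was not analysed here.

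Counts were analysed with edgeR 4.0.16 (TMM, quasi-likelihood test, Benjamini-Hochberg over 422 miRNAs, threshold 0.1), with limma 3.58.1 and DESeq2 1.42.0 as alternatives, in R 4.3.3, and with SciPy 1.17.1 in Python 3.11.15. No filter was applied. Permutation tests of levels and correlations used log2(CPM + 0.5), and those of arms the log2 ratio of raw counts. Standard errors were derived from each miRNA's fold change and F value. The steps were tested on simulated data. Every pair of libraries within a strain differed by more than sampling noise.

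The miRNAs named are the 5 members, the 3 most alike to each, and the members of the lists given. Members and lists were chosen with earlier results of these data known. Sequences came from RefSeq (GRCm38.p6) and gene models from GENCODE M21. Same-numbered mice of the strains had correlations of −0.15 to 0.05 in their deviations. Differently numbered mice had −0.28 to 0.21, so no pairing by number was seen. Alternatives were other tests, normalizations and dispersion estimates, a filter, a replicate block, another threshold, and mice left out in turn.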

Additional observations from a re-analysis of the deposited data

How the results depend on the processing

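Each strain difference was recomputed under 20 alternatives, and all 5 miRNAs kept their direction in all of them. Leaving out each mouse in turn moved the log2 fold change of miR-335-5p between 0.31 and 0.72, of miR-335-3p between 0.66 and 1.36, of miR-296-5p between −0.65 and −0.40, of miR-296-3p between −0.57 and −0.31, and of miR-298-5p between −1.5 and −1.03. DESeq2 gave no adjusted p for miR-298-5p. Over the alternatives that gave one, the adjusted p lay between 0.0527 and 0.691 for miR-335-3p and between 0.136 and 0.565 for miR-298-5p. Scaling by library size only raised the median log2 fold change of all miRNAs from 0.02 to 0.15. B6 replicate 2 and BTBR replicate 1 lay nearest to the other strain in miR-335-3p and in the ratio of the loci. With both left out, chosen after the data were seen, miR-335-3p came to 1.52 on the log2 scale (edgeR quasi-likelihood test, Benjamini-Hochberg adjusted p = 0.0527), so that 1 of the 5 was called, among 24 of all miRNAs. The log2 fold changes of miR-335-5p and miR-296-5p were then larger in size, at 0.83 and −0.60, and those of miR-296-3p and miR-298-5p smaller, at −0.26 and −0.95. The count over all miRNAs, 7, was 21 with the DESeq2 Wald test, 16 with the edgeR exact test, 4 with library size only, 4 at a threshold of 0.05, 3 with the replicate block, and 3 to 13 with each mouse left out (13 without B6 replicate 2, 4 without BTBR replicate 1, and 3 without BTBR replicate 3 or 4). The replicate block called none of the 5, and no pairing of mice by number was seen. The strain difference in the log2 arm ratio (BTBR minus B6) of miR-335 lay between −0.68 and −0.36 with each mouse left out, and that of miR-296 between −0.38 and 0.087. The log2 difference in the ratio of the loci lay between 1.19 and 1.61, and was 1.81 with both of those mice left out.

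The miR-335 strands passed the threshold with library size only (r = 0.90, adjusted p = 0.0521, exact permutation test), without centring (0.87, 0.0868) and without BTBR replicate 2 (0.94, 0.0694). None of the correlations that changed sign passed the threshold. Without centring on strain, r was −0.15 for miR-335-5p with miR-296-5p, −0.063 with miR-296-3p and −0.094 with miR-298-5p, and for miR-335-3p it was −0.45, −0.053 and −0.27 with the same miRNAs, and 0.30 for the miR-296 strands. The last pair had 0.15 with library size only. Without the 2 farthest mice, r was −0.013 for miR-335-5p and −0.24 for miR-335-3p with miR-296-5p, 0.55 for the miR-296 strands and −0.74 for miR-296-3p with miR-298-5p. With each mouse left out, r lay between −0.27 and 0.65, −0.24 and 0.48, −0.78 and 0.11, and −0.52 and 0.36 for these 4 pairs in turn. Depth limits miR-298-5p most.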
